A study of Sus scrofa with 6 samples.

Results

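Of the 23935 probe sets of the porcine array that are not controls, 49 (0.205%) had a signal above 50 on all 3 arrays of one breed of sow and a signal of 50 or less on all 3 arrays of the other. These 49 were chosen by their measured signals: 33 (0.138%) lay above 50 in Large White sows only and 16 (0.0668%) in Chinese Taihu sows only. The breed contrast is thus what selected them, so their values are given as a description. They were part of the fit over all probe sets, but no p-value of theirs is used as support. A probe set is a group of short probes against one stretch of transcript, and a gene can have several. A signal of 50 is a level used by the study to screen weak probe sets, and it is no statement that a transcript was absent below it.

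The arrays were hybridized with RNA of ovarian follicles, 1 sow per array, from 3 Large White and 3 Chinese Taihu sows. The labels call the latter Chinese Erhualian, which is a strain of the Taihu group. All 6 sows were multiparous, with normal cycles, and all were given 1000 IU of PMSG, a gonadotrophin that makes follicles grow, then 500 IU of hCG 80 h later to replace the LH surge, and were killed 30 to 38 h after hCG. No sow was left without hormones, and each breed came from a farm of its own, so breed and farm cannot be told apart.

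A follicle near ovulation holds an oocyte, granulosa cells that make steroids and matrix, a theca layer with blood vessels, and fluid that contains many plasma proteins. After the LH surge the granulosa cells leave the cell cycle and begin to luteinize, the matrix around the oocyte swells with hyaluronan that is cross-linked by heavy chains of a plasma protease inhibitor, and leukocytes gather in the follicle wall. In such bulk tissue, fewer cells of a type and less RNA per cell cannot be told apart.

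Signals on the 6 arrays had medians of 173 to 187, and 78.6 to 79.5% of the probe sets exceeded 50 on each. The signals of 18 spike-in control probe sets, as a ratio to their Large White mean, were 0.952 to 1.07 on the Large White arrays and 1.29 to 1.44 on the Chinese Taihu arrays, without overlap between the breeds. Their part in the members' differences was not tested. The array of Chinese Taihu sow 1 stood apart, with correlations of 0.834 to 0.887 with the other arrays against up to 0.967 elsewhere. The median of the granulosa marker list in this sow was -2.45 log2 units from the median of the 6 arrays. Highest there were 9 of 9 markers of surface epithelium and 3 of 3 of oviduct and motile cilium. Of the latter, OVGP1 read 11904 there and 116 to 2382 in the other 5 sows. Of the granulosa markers, STAR, which brings cholesterol to the steroid enzymes, read 27.0 there and 982 to 12624 in the other 5 sows, whereas 2 of the 11 tested were highest in this sow, INHBA (899 against 233 to 387) and CYP19A1 (119 against 88.4 to 117). If the array of this sow was left out, 57 probe sets met the rule in Large White and 38 in Chinese Taihu, including all 49, as they must with fewer arrays to pass.

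Most of the 49 probe sets were dim and lay close to the level on both sides, and a few were separated widely. The mean signal of the breed above 50 was under 100 for 41 of them, with a median of 70.5 for those above 50 in Large White and 60.2 for those above 50 in Chinese Taihu. In 29 of the 49, the lowest array of the higher breed and the highest array of the lower breed both lay within 10 of the level. The gap, taken as the lowest signal of the higher breed over the highest signal of the lower breed, had a median of 1.21. It was at least 2 in 7 probe sets (5 in Large White and 2 in Chinese Taihu) and under 1.1 in 13. All 49 passed the filter for testing, which asks for a signal above 50 on at least 3 arrays, and each passed it through the higher breed alone.

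Separation of the breeds without overlap was not limited to the members. Among the 19196 probe sets above 50 on at least 3 arrays, every Large White array exceeded every Chinese Taihu array in 982 (5.12%), and the reverse held in 764 (3.98%), and the 33 and the 16 are among these by the rule. A gap of at least 2 at any level was found in 19 with Large White higher and in 8 with Chinese Taihu higher, so that most wide gaps in both directions were outside the selection. In limma, 4 of the 19196 probe sets (0.0208%) passed an adjusted p of 0.05, all lower in Chinese Taihu, and 3 of the 4 were members (the probe sets of ASF1B, Ssc.31029.1.A1_at and Ssc.30566.1.A1_at). The fourth, Ssc.26266.1.S1_at, named here after its values were seen, read 884, 489 and 607 in Large White and missed the rule with 44.7 to 62.9 in Chinese Taihu. With any 1 Large White array left out, 0 calls were made at the adjusted p, and 2 without Chinese Taihu 1 or 2. Without Chinese Taihu 3 there were 4 calls, of which 2 were among the 4 made with all arrays. The members had been selected on the contrast that this fit tests, so nothing is read from that overlap.

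Which probe sets met the rule depended on where the level was set. At a level of 40, 28 probe sets lay above it in Large White only and 17 in Chinese Taihu only, of which 11 and 3 were members at 50. At a level of 60, the counts were 30 and 26, with 13 and 2 of the members. The members found at 40, 50 and 60 alike numbered 7 in Large White and 2 in Chinese Taihu. The count for Large White exceeded that for Chinese Taihu at 50 (33 against 16). It was also the larger at every other level tried from 10 to 5000, except 80 (34 against 35) and 100 (28 against 31). It was 37 against 31 at 150, 36 against 19 at 300, 42 against 14 at 500 and 20 against 8 at 1000. Scaling each array to the same median gave 32 and 10 at a level of 50 in place of 33 and 16.

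Just inside the level was ITIH1, with a lowest Large White signal of 50.22 and a highest Chinese Taihu signal of 49.90. Just outside lay Ssc.17967.1.A1_at, with 49.97 and 40.88 in the same order, and Ssc.5876.1.A1_at, with 59.62 and 50.83. For Chinese Taihu, Ssc.11536.1.S1_at was just inside, with a lowest Chinese Taihu signal of 50.76 and a highest Large White signal of 48.39. Ssc.3645.2.S1_at, with 49.97 and 49.25, and Ssc.10342.1.A1_at, with 50.58 and 50.12, were just outside.

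The widest gap was that of a probe set of ASF1B, a chaperone that hands histones H3 and H4 to the factors that build nucleosomes behind the replication fork. Probe set Ssc.20473.2.S1_at read 284, 269 and 180.3 in the Large White sows and 0.658, 0.776 and 1.97 in the Chinese Taihu sows. The mean of 244 ± 55.9 (SD, n = 3) in Large White was at least 4.89-fold higher than in Chinese Taihu, taking the level of 50 as the bound there, and the gap was 91.5. In Chinese Taihu its signals were among the lowest of the array, with at most 0.188% of probe sets below it on each, whereas 49.4 to 62.7% lay below it on the Large White arrays. Such low signals have no defined floor. The gap of 91.5 divides by the highest of them, 1.97, so it ranks the probe set and is not read as a fold.

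The other probe set of ASF1B, Ssc.20050.1.S1_at, differed far less. It read 191, 79.1 and 85.4 in the Large White sows and 40.1, 75.8 and 64.4 in the Chinese Taihu sows. The breeds did not overlap, but the nearest arrays were 79.1 and 75.8, and 2 of 3 Chinese Taihu sows were above 50. The log2 difference was -0.91 (SE 0.41, adjusted p = 0.993, limma), where values below 0 mean a lower signal in Chinese Taihu here and in what follows. Detection in one breed is thus a statement about the first probe set of ASF1B and not about the gene.

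Of a list of histone chaperones and chromatin assembly factors, 14 genes other than ASF1B were tested. Their median log2 difference was -0.12, beside 0.00 over all probe sets tested, and 0 passed an adjusted p of 0.05. At an unadjusted p of 0.05, RBBP7, a histone-binding subunit of several chromatin complexes, was 0.37 higher in Chinese Taihu and DNAJC9, a heat shock co-chaperone that binds histones, was 0.53 lower on the log2 scale. The shares of all probe sets at that p were 1.56% higher in Chinese Taihu and 2.30% higher in Large White. ASF1A, the paralog of ASF1B, read 288, 1204 and 964 in Large White, beside 392, 284 and 433 in Chinese Taihu, so that the breeds overlapped.

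Of the members with no name, 3 had wider gaps than every named member other than ASF1B, all with Large White higher. Ssc.31029.1.A1_at read 595, 424 and 428 in Large White against 23.1, 23.2 and 23.1 in Chinese Taihu, with a gap of 18.3. Ssc.30566.1.A1_at read 253, 411 and 221 in Large White against 22.1, 19.0 and 16.7, with a gap of 9.99. With ASF1B, these are the only 3 probe sets on the array above 100 on all 3 Large White arrays and under 25 on all 3 Chinese Taihu arrays, and 0 met the reverse. Ssc.8838.1.A1_at read 91.7, 107 and 173 in Large White against 16.7, 19.9 and 20.6 in Chinese Taihu, and here too no sow of either breed came near the other breed.

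The near-equal Chinese Taihu signals of Ssc.31029.1.A1_at had a coefficient of variation of 0.162% over the 3 sows. A coefficient under 1% was found in 62 of the 23935 probe sets in Chinese Taihu (0.259%) and in 69 in Large White (0.288%). Among dim probe sets, with means of 15 to 50, the median coefficient was 16.3% in Chinese Taihu. The other members above with low signals had coefficients of 10.8 to 64.0% in the lower breed, which is far wider. In Large White, ITIH1 had a coefficient of 0.103%.

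Ssc.7268.1.A1_at was annotated in the study as similar to leukocyte cell derived chemotaxin 1, also called chondromodulin, a glycoprotein of cartilage that hinders the growth of blood vessels. It read 215, 108 and 165 in the Large White sows and 36.2, 15.5 and 30.8 in the Chinese Taihu sows, with a gap of 2.97. The 4 tested cartilage markers had a median log2 difference of 0.02, and 0 of them passed the test at an unadjusted p of 0.05. Ssc.25434.1.S1_at was annotated in the study as weakly similar to a hypothetical protein of Xenopus laevis and listed under zinc finger protein 114. It read 62.3, 96.2 and 77.7 in Large White, beside 17.1, 23.4 and 35.9 in Chinese Taihu. All 3 Large White sows were thus above all Chinese Taihu sows by a factor of 1.74 or more in that probe set.

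Of the serpin list and of the complement list, 1 gene each was among the members, SERPINA5 and C5, both above 50 in Large White. SERPINA5 encodes protein C inhibitor, a serpin of plasma and reproductive tract fluids that blocks activated protein C and other serine proteases. Both of its probe sets were members. Ssc.20156.1.S1_at read 79.5, 81.5 and 128 in Large White against 24.6, 46.9 and 43.8 in Chinese Taihu, with means of 96.3 ± 27.4 and 38.5 ± 12.1 (SD, n = 3). Ssc.18037.1.S1_at read 75.2, 63.6 and 72.6 against 33.6, 46.4 and 37.8, with means of 70.5 ± 6.08 and 39.3 ± 6.52. SERPINA5 was the only gene with more than 1 member, and the only one of the 12 genes with a single symbol for which every one of several probe sets met the rule.

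C5, the complement component whose cleavage starts the membrane attack complex, read 71.1, 80.9 and 61.7 in the Large White sows and 45.1, 31.7 and 35.3 in the Chinese Taihu sows on Ssc.21108.1.S1_at. ITIH1, which is in neither list, encodes a heavy chain of inter-alpha-trypsin inhibitor, of the kind bound to hyaluronan around the oocyte. Its member, Ssc.27002.1.S1_at, read 50.3, 50.3 and 50.2 in Large White, beside 48.9, 37.9 and 49.9 in Chinese Taihu, which is the narrowest gap of all 49, at 1.01. The other ITIH1 probe set, Ssc.3319.1.S1_at, was above 50 on all arrays, at 95.5, 98.7 and 90.7 against 61.4, 114 and 122, and the breeds overlapped.

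The other genes of the same lists were read in the same way. Of 8 other serpins tested, 0 passed an unadjusted p of 0.05 in either direction, and their median log2 difference was -0.07. Of 22 other complement genes tested, 0 were lower and 1 was higher in Chinese Taihu at that p: CR1, a receptor that binds cleaved C3 and C4, at 435, 167 and 258 against 32.4, 72.0 and 51.2 in Large White. Its log2 difference was 2.43 (SE 0.43, adjusted p = 0.598, limma), opposite in direction to C5. The summed signal of 7 liver markers was 6290.3 to 6619 in Large White and 3379.8 to 7725 in Chinese Taihu. Most of it was APOA1, at 5652 to 5998 in Large White and 2656 (sow 1) to 7004 in Chinese Taihu. Albumin, ALB, lay between 45.3 and 59.3 on all 6 arrays.

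DAO, the peroxisomal enzyme that oxidizes D-amino acids, read 77.0, 51.7 and 59.2 in Large White against 46.6, 44.8 and 49.7 in Chinese Taihu on Ssc.232.1.S1_at. The gap was 1.04, so that 51.7 in one breed stood beside 49.7 in the other. Of the named genes it was, with S100A9 and ITIH1, one of 3 in Large White with a gap under 1.1.

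S100A9, a calcium-binding protein that neutrophils and monocytes hold in large amounts, varied more between the Large White sows than any other member did. Ssc.2381.1.A1_at read 99.8, 253 and 51.2 in the Large White sows and 47.8, 47.9 and 49.3 in the Chinese Taihu sows, with a coefficient of variation of 78.1% in Large White. Large White sow 3 was thus at the level of the Chinese Taihu sows, and sow 2 was highest. The related S100A12 read 101, 495 and 39.1 in Large White, beside 46.2, 51.3 and 41.4 in Chinese Taihu, with the same sow highest and overlap between breeds. S100A8, the partner of S100A9 in calprotectin, read 119, 90.9 and 80.5 against 68.1, 96.4 and 73.8, and there Large White sow 2 was not the highest.

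Of 9 leukocyte markers, 6 were highest in Large White sow 2, and TYROBP, an adaptor of myeloid receptors, read 5138 there and 534 to 1011 in the other 5 sows. The other 3, the lymphocyte genes CD3D, CD3E and CD2, were highest in Chinese Taihu sow 1, at 193, 130.4 and 169, against 179, 95.4 and 115 in Large White sow 2. The summed signal of the 9 markers was 2382 to 13445 in Large White and 2439 to 4556 in Chinese Taihu. Their part in the S100A9 signal was not tested. None of the 9 markers passed an unadjusted p of 0.05 between the breeds in limma.

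Several members with a symbol lay close to the level while other probe sets of the same genes were bright in both breeds. GIPC1 is a PDZ adaptor that links receptors to myosin during endocytosis. Its member, Ssc.21799.3.S1_at, read 56.1, 81.8 and 96.3 in Large White against 39.5, 47.2 and 43.2 in Chinese Taihu. On Ssc.21799.1.A1_at the gene read 788, 1260.5 and 1157 in the Large White sows and 579.8, 576 and 668 in the Chinese Taihu sows, again without overlap, with a log2 difference of -0.79 (SE 0.24, unadjusted p = 0.0148, adjusted p = 0.993, limma). GIPC1 was thus detected in both breeds, and both of these probe sets were higher in Large White.

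NSMCE4A, a subunit of the SMC5-SMC6 complex of DNA repair, read 74.8, 58.6 and 50.9 in Large White, beside 34.8, 43.0 and 33.8 in Chinese Taihu on Ssc.17330.3.A1_at. Its other probe sets were above 50 in all sows, with log2 differences of -0.23 (SE 0.16) and -0.18 (SE 0.20). KIAA0907, an RNA-binding protein with K homology domains, read 66.2, 67.5 and 50.1 in Large White against 36.7, 23.4 and 32.5 in Chinese Taihu on Ssc.25140.1.A1_at. The brightest KIAA0907 probe set, Ssc.1090.1.S1_at, read 603, 1045 and 698 against 650.1, 471 and 672, and there the breeds overlapped.

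The probe table lists Ssc.5710.1.A1_at under USP53, a ubiquitin protease family member, and under LRFN5, a synaptic adhesion protein. The study annotated it as similar to LRFN5 alone. The probe set read 95.0, 59.5 and 93.4 in the Large White sows and 48.3, 35.0 and 49.7 in the Chinese Taihu sows. The other probe sets with the same pair of symbols went the other way without overlap, from 172 to 176 in Large White and 208 to 276 in Chinese Taihu on Ssc.26533.1.A1_at, and from 110.2 to 257 against 271 to 533 on Ssc.26533.2.A1_at. Their log2 differences were 0.41 (SE 0.17) and 1.20 (SE 0.42), each with an adjusted p of 0.993 in limma. Whether they measure the same gene as the member was not tested.

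In the opposite direction, the widest gap was that of Ssc.12458.1.A1_at, which carries no symbol in the probe table and was annotated in the study as lipin 1. Lipin 1 (LPIN1) is the phosphatidate phosphatase that makes diacylglycerol for fat and phospholipid synthesis, and it also acts with nuclear factors on genes of lipid oxidation. The probe set read 39.5, 35.5 and 24.4 in Large White, beside 138, 139 and 141 in Chinese Taihu, with a gap of 3.49. The mean of 139.6 ± 1.72 (SD, n = 3) in Chinese Taihu had a coefficient of variation of 1.23%, among the smallest of the members.

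Probe sets named LPIN1 in the probe table did not share 1 direction. Ssc.27543.1.S1_at read 497, 379 and 309 in Large White against 615, 630.5 and 548 in Chinese Taihu, with a log2 difference of 0.62 (SE 0.23, unadjusted p = 0.0331, adjusted p = 0.993, limma). Ssc.1942.1.S1_at read 440.3, 150.2 and 128 in the Large White sows and 83.9, 35.4 and 22.4 in the Chinese Taihu sows. Its log2 difference was -2.33 (SE 0.64, unadjusted p = 0.00955, adjusted p = 0.993, limma). The breeds did not overlap on either, so 1 was higher in Chinese Taihu as the member was, and the other was lower. Of 16 genes of glycerolipid synthesis, LPIN1 by its brightest probe set was the only one to pass an unadjusted p of 0.05 in limma. Over all tested probe sets, 1.56% were higher in Chinese Taihu and 2.30% higher in Large White at that p. Ssc.1942.1.S1_at, which is not the brightest for LPIN1, passed it in the opposite direction. The median log2 difference of the 16 genes was -0.02.

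PPP1R15B keeps protein synthesis going in unstressed cells by bringing a phosphatase to eIF2 alpha. On Ssc.24862.1.S1_at it read 42.1, 34.6 and 40.6 in Large White, beside 51.4, 62.4 and 54.4 in Chinese Taihu. Its other probe sets had log2 differences of 0.01 (SE 0.16) and -0.19 (SE 0.16), and the breeds overlapped on both. ATP13A2, a lysosomal ATPase that exports polyamines, read 48.3, 45.7 and 35.9 in Large White against 60.2, 57.1 and 58.4 in Chinese Taihu on Ssc.19492.1.A1_at, while Ssc.18752.1.A1_at read 610.1 to 728 and 667 to 756.

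HDLBP encodes vigilin, an RNA-binding protein with many K homology domains that is found at the endoplasmic reticulum. Ssc.6605.1.S1_at read 46.5, 44.6 and 39.5 in the Large White sows and 51.2, 53.3 and 50.9 in the Chinese Taihu sows, a gap of 1.09. The brightest probe set, Ssc.5947.1.A1_at, read 1317, 1297 and 1030.3 in Large White, beside 706, 1031 and 909 in Chinese Taihu. Its log2 difference was -0.47 (SE 0.22, adjusted p = 0.993, limma), against the direction of the member. Ssc.6605.2.A1_at, which has no symbol but shares the cluster number of the member, went with it, at 0.27 (SE 0.21). The breeds overlapped on both. In HDLBP, then, the probe set with the most signal was above 50 in every sow of both breeds.

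Ssc.26841.1.A1_at, annotated as similar to the ubiquitin protease USP33, read 34.3, 29.4 and 41.6 in Large White against 53.4, 53.4 and 64.6 in Chinese Taihu. Ssc.25358.1.S1_at, with 2 symbols of which GRAMD2A is one, read 49.0, 36.6 and 38.3 against 88.3, 70.3 and 55.1. Both had gaps under those of the unnamed probe sets that led this direction. Ssc.22943.1.S1_at read 21.0, 19.7 and 20.7 in the Large White sows and 67.7, 54.4 and 56.9 in the Chinese Taihu sows, a gap of 2.59. Ssc.5634.1.A1_at read 34.2 to 40.3 in Large White and 58.0 to 76.1 in Chinese Taihu, and no sow lay between.

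Ssc.13567.1.A1_at was highest in the sow whose array stood apart. It read 20.8, 24.4 and 36.6 in Large White, beside 237, 63.8 and 85.6 in Chinese Taihu, with 237 in Chinese Taihu sow 1. In the other Chinese Taihu sows it was still above every Large White sow, and the gap of 1.74 was set by sow 2. Ssc.23798.1.S1_at was also highest there, at 89.9 against 53.6 and 51.9 in the other Chinese Taihu sows and 46.1 to 49.0 in Large White. Of the 16 members above 50 in Chinese Taihu, 8 had their highest signal in sow 1, and for 5 that sow was the lowest of its breed. Among the 33 above 50 in Large White, 14 had their highest signal in Large White sow 1.

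By a single symbol of the probe table or the sequence cluster, 10 members had other probe sets that did not meet the rule, 16 in number. Of these, 9 were above 50 on all 6 arrays, covering 7 of the 10 members, and 4 were at 50 or less on all 6. The fit tested 12 of the 16. With the LPIN1 probe sets and those with the symbols USP53 and LRFN5, the tested ones numbered 16, and 11 of these had the sign of the member (10 of 12 without them). For members above 50 in Large White it was 6 of 8, beside 49.7% of all tested probe sets with that sign, and 1 of these 6 was ITIH1, at a p of 0.992 in limma and with a higher mean in Chinese Taihu (99.0 against 95.0). For members above 50 in Chinese Taihu it was 5 of 8, beside 50.3%. Of these 5, 1 was Ssc.24862.2.S1_at of PPP1R15B, with a log2 difference of 0.01 and a p of 0.938 in limma.

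In 7 of the 16 tested, all arrays of one breed exceeded all of the other, in either direction. Without the LPIN1 probe sets and those listed under USP53 and LRFN5, added after values were seen, it was 3 of 12. Over all tested probe sets, the shares were 5.12% with Large White higher and 3.98% with Chinese Taihu higher, and the 7 are to be set beside both together. Of the 7, 4 had the sign of the member (ASF1B, GIPC1, NSMCE4A and Ssc.27543.1.S1_at of LPIN1) and 3 the opposite sign (Ssc.1942.1.S1_at of LPIN1 and both probe sets listed under USP53 and LRFN5). None of the 16 tested passed an adjusted p of 0.05 in limma. At an unadjusted p of 0.05 in limma, 2 with the sign of the member passed (GIPC1 and Ssc.27543.1.S1_at) and 2 with the opposite sign (Ssc.1942.1.S1_at and Ssc.26533.2.A1_at). These probe sets were read on the same arrays as the members, and some share a gene.

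The members differed from other probe sets in annotation much as other dim probe sets did. A single gene symbol was given for 13 of the 49 (26.5%), against 47.4% of the 19196 tested and 30.6% of the 3462 with a mean of 50 to 100 in the higher breed. The letter A in the probe set name, which marks the orientation of the source sequence, was carried by 32 of 49 (65.3%), against 44.1% and 58.5%. The lowest Large White signal of the 33 was in sow 1 for 8, in sow 2 for 10 and in sow 3 for 15, and the highest Chinese Taihu signal was in sow 1 for 10, in sow 2 for 8 and in sow 3 for 15.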

How the data were processed

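The authors made 1 normalized signal intensity per probe set and array from the scanned arrays (MAS5, version 2.3.1 in the submitters' processing notes, scaled to 500, then the invariant set method of dChip), and the deposited intensities are on a linear scale. Control probe sets (188 of 24123) were left out and members were counted from the intensities. For other comparisons, intensities were floored at 1 and taken to log2. The 19196 probe sets above 50 on at least 3 of 6 arrays were fitted with limma 3.58.1 in R 4.3.3 (variance trend, 2-sided, Benjamini-Hochberg). The code of the fit was tried on simulated data whose spread was capped below that of some probe sets here. That trial does not measure how the fit performs on these arrays. The arrays are of separate sows, and their number limits the precision. Symbols came from the probe table (10099 probe sets with 1, 198 with several, 13826 with none), other names from the study's annotation. A list gene was read on its brightest probe set with 1 symbol.

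Named were members with 1 symbol or a name in the study's annotation, the 3 unnamed ones with the widest gap in each direction, members nearest the level, and up to 3 genes of a list. S100A8, S100A12, Ssc.23798.1.S1_at and the members with several symbols were singled out after values were seen. Members and lists were chosen with earlier results of these data known. Lists not described in the report (theca, red blood cell, endothelium and oocyte markers) had 0 adjusted limma calls, as did the oviduct and cilium list. At an unadjusted p of 0.05 in limma, the red blood cell list alone of these had calls, 2 of 4 higher in Chinese Taihu. Alternatives were other levels, array counts and gaps, quantile normalization, median scaling, other filters, 16 added before log2, a constant prior variance, a replicate block, the methods' t-test, other choices of probe sets, and each array left out. The LPIN1 probe sets and those listed under USP53 and LRFN5 were added after the data were seen. Present calls and RT-PCR data were not used here.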

Additional observations from a re-analysis of the deposited data

How the results depend on the processing

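The count of probe sets in Large White only (33) was 15 at a level of 25, 412 if 2 of 3 arrays against 1 of 3 were asked for, 5 with a gap of at least 2 and 50 to 71 with any 1 array left out. That in Chinese Taihu only (16) was 26 at a level of 60, 31 at 100, 433 with 2 of 3 arrays, 2 with a gap of at least 2, 10 under median scaling (8 of them shared) and 28 to 65 with any 1 array left out. Quantile normalization gave 31 and 18, of which 29 and 15 were shared. Adjusted limma calls, 4 with all arrays, numbered 0 with any 1 Large White array left out. They numbered 2 without Chinese Taihu 1 or 2. Without Chinese Taihu 3 they numbered 4, of which only 2 were among the 4 made with all arrays. Calls at an unadjusted p of 0.05 in limma numbered 351 to 1215 with any 1 array left out. With a replicate block there were 0 adjusted calls (719 unadjusted), and by the methods' t-test 0 (846 unadjusted). The labels state no pairing of sows by replicate number, and none was assumed. Deviations of arrays with the same number correlated at -0.17, -0.14 and 0.27, which so few arrays cannot turn into an answer. The median log2 difference of the 12 other probe sets tested, signed by the member, was 0.15 and ranged from 0.10 to 0.23. The log2 difference of 12 of the 49 members moved by more than the spread of the sows with 16 added before log2. The selection fixes their direction when an array is left out, so nothing is read from it. The cause was not tested. Signals near 50 limit what can be said of most members.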
